A study of Mus musculus with 8 samples.

Results

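The regions described here are stretches of open chromatin that were most accessible in regulatory T cells (Tregs) of the mouse spleen, set against T cells of visceral adipose tissue (VAT). A region was taken when both spleen libraries exceeded all 6 VAT libraries in CPM (a region's count divided by the library's total over chromosomes 1 to 19 and multiplied by 1e6), when the spleen mean was at least 1.3 times the mean of each VAT group, and when the spleen mean was at least 2 CPM. Of 45402 distinct regions on chromosomes 1 to 19, 3892 met the first condition, 1503 the first and second, and 1408 all of them, which is 3.10% of the regions. The members were chosen by these 8 libraries' own CPM, so every spleen level and every margin over VAT given here describes the choice and carries no test. The same rule led by male VAT Tregs gave 2232 regions, led by VAT CD4 T cells 981, and led by female VAT Tregs 452.

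The assay was ATAC-seq: a transposase inserts sequencing adapters into DNA that is free of nucleosomes. All cells came from C57BL/6 mice with a red fluorescent protein (RFP) reporter for Foxp3, the transcription factor that defines Tregs, and each library was made from flow-sorted cells pooled from 3 mice. The 8 libraries form 4 groups of 2: RFP+ Tregs of male spleen, RFP+ Tregs of male VAT, RFP+ Tregs of female VAT, and RFP- CD4 T cells of male VAT. No female spleen library was analysed here, no age or treatment is given in the labels, and whether the replicate pools differ in more than the mice is not stated, so that p-values measure the spread between pooled libraries only.

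Tregs restrain immune responses and arise mainly in the thymus. Those in the spleen circulate through lymphoid tissue and respond to signals of the T cell receptor (TCR), interleukin-2 and Notch ligands, whereas those in visceral fat form a tissue population that depends on the nuclear receptor PPARG and the interleukin-33 receptor. An accessible region can be a promoter or a distal regulatory element, and its gene assignment in the deposited table is a matter of position, not of function.

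Counts over chromosomes 1 to 19 ranged from 5669084 to 15630184 per library, so that 2 CPM stood for 16.2 and 31.3 counts in the spleen libraries. The sorted identity was checked on summed accessibility at the 6 regions of Foxp3, which lies on the X chromosome and could not become a member: it was 56.0 and 70.3 CPM in the spleen Treg libraries, 89.2 and 54.5 in VAT Tregs of males, 114.1 and 113.9 in those of females, and 35.1 and 39.6 in the RFP- CD4 cells. The CD4 libraries were the lowest at Foxp3. They were also the lowest at the 1 region inside Ctla4, with 35.1 and 43.9 CPM against 59.2 to 80.3 in the Treg libraries. The 9 regions inside Il2ra did not separate them, with 50.4 and 61.1 CPM in CD4 cells and 54.3 to 81.7 in the Treg libraries. One library stood apart: male VAT Treg replicate 1 had 5.53% of its total in regions shorter than 1000 bp, where the other 7 had 3.55% to 4.26%, and 568 CPM in the 27 regions of the Y chromosome against 970 to 1194 CPM in the other 5 male libraries and 278 and 291 CPM in the female libraries. Without it the rule gave 1579 members. Counts of calls and the shares of the TCR signalling and lymphoid homing lists are also given without it.

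Of the 1408 members, 126 covered a transcription start in the RefSeq promoter table, and these covered 140 promoter windows of 130 genes. RefSeq windows (build GRCm38.p6, 250 bases before to 50 after the start) of 4 of them show what the members look like at the level of sequence. Shown are long regions that contain a whole promoter of a gene of the Treg and TCR lists. The others are short regions that lie inside a promoter window or overlap it. All 4 were chosen after their values were seen. The first set is the promoter of Izumo1r (Folr4 in the deposited table, the folate receptor 4 of Tregs; chr9:14903718-14904017, minus strand), inside a 9667-bp member, and that of Lat (the adaptor that links the TCR to phospholipase C; chr7:126369519-126369818, minus strand), inside a 3645-bp member. Capitals mark matches to motif letters searched on both strands, namely TGTGGT for RUNX factors and TGGAAA for NFAT in Izumo1r, and TGTGGT for RUNX and CCCACCC for KLF factors in Lat.
Izumo1r: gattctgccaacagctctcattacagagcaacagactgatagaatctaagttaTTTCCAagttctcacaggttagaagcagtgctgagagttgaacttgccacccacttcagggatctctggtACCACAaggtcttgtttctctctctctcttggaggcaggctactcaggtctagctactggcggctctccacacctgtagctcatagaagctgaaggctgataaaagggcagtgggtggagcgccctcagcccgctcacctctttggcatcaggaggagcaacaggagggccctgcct
Lat: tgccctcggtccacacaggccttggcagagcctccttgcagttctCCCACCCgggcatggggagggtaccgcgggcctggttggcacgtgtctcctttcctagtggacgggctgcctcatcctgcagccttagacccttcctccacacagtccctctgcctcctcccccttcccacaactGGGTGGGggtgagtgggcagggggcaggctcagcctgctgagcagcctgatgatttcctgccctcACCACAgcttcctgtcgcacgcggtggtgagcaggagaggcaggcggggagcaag
The second set is the promoter of Slamf6 (a co-receptor of the SLAM family on lymphocytes; chr1:171917212-171917511, plus strand) and that of Tnfrsf1a (a receptor for tumour necrosis factor; chr6:125349473-125349772, plus strand), where capitals mark the bases that the member itself covers. The Tnfrsf1a member ends at 125349790, beyond its window, so the capitals mark only 163 of its bases. Starts in the deposited table may count from 0 or 1, so the first capital may be off by 1 base.
Slamf6: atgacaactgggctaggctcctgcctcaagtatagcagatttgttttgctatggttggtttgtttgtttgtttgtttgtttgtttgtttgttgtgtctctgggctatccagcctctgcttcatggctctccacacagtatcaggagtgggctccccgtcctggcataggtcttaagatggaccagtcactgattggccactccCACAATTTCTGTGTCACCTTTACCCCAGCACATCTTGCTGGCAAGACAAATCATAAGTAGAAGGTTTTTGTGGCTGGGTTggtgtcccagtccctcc
Tnfrsf1a: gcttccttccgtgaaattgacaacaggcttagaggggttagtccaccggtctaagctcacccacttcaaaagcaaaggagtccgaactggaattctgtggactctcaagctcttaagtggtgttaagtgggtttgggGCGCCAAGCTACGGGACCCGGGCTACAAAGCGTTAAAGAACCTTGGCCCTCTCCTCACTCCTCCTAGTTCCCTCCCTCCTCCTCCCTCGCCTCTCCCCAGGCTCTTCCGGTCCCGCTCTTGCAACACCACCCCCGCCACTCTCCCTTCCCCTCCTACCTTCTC

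The 9667-bp region of Izumo1r had 61.1 and 74.2 CPM in the spleen libraries, 46.7 and 37.6 in VAT Tregs of males, 42.9 and 51.8 in those of females, and 34.2 and 48.6 in CD4 cells. The 3645-bp region of Lat had 20.4 and 22.8 CPM in spleen and 13.4 to 18.3 CPM in the 6 VAT libraries. The Izumo1r region was high in every library. That of Lat was nearer the median over all regions of 1000 bp or more, a spleen mean of 17.0 CPM. The spleen mean was 1.43 times the highest VAT group mean at Izumo1r and 1.34 times at Lat. The 79-bp region of Slamf6 was near the limit of what could be counted, at 2.71 and 2.82 CPM in spleen and 0.798 to 2.39 in VAT, while the 180-bp region of Tnfrsf1a had 4.80 and 5.95 CPM in spleen and 2.50 to 3.76 in VAT.

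Across the 140 promoter windows, the RUNX letters were found in 18.6%, against 13.0% of the 12628 windows covered by any autosomal region and 16.7% of all 31396 windows in the table. The KLF letters were in 22.9%, 20.1% and 17.5%, and the NFAT letters in 16.4%, 16.5% and 21.5%. The ETS letters (CCGGAAG) were in 14.3%, 18.2% and 9.0%, the AP-1 letters (TGACTCA) in 2.14%, 3.36% and 5.26%, and the CRE letters (TGACGTCA) in 2.86%, 3.30% and 1.83%. Matches to TCF/LEF (CTTTGAT) and FOX (TGTTTAC) letters occurred in 1 window each, or 0.714%, against 2.56% and 2.78% of windows covered by any region. Matches of different motifs may overlap, the CRE letters are their own reverse complement, the windows are not independent where a gene has several starts, and the shares are a description of these 300-bp windows only. The median GC content was 59% in member windows, 61% in windows of any region and 53% in the table.

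Members fell into width classes that differed in level and margin. The 768 members under 1000 bp made up 4.68% of the 16417 regions of that class, with a median width of 105 bp, a median spleen mean of 3.41 CPM and a median margin of 1.59 times the highest VAT group mean. The 640 members of 1000 bp or more made up 2.21% of 28985 regions, with a median width of 3242 bp, 13.8 CPM and a median margin of 1.38. Of the 149 members with a margin of 2 or more, 148 were short. The exception was the 2273-bp region of Itgae. Regions of exactly 79 bp supplied 192 members, 25% of the short members against 10.9% of all short regions.

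**Figure D1:**
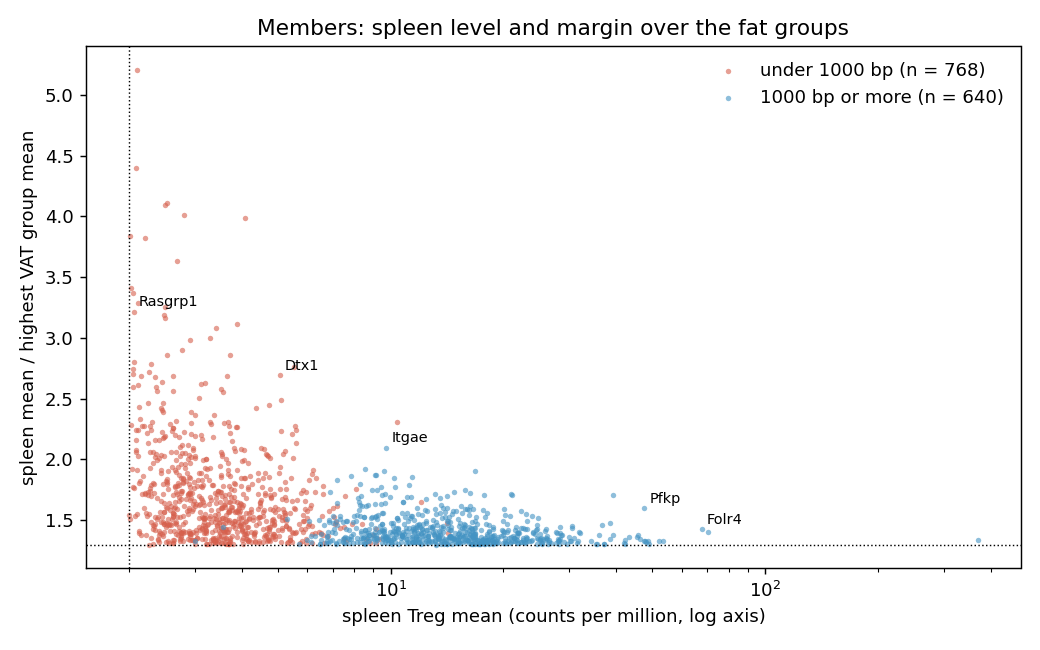
Each point is 1 of the 1408 members, with the mean CPM of the spleen Treg libraries on a log horizontal axis and the spleen mean divided by the highest VAT group mean on the vertical axis; dotted lines mark the limits of 2 CPM and 1.3 used by the rule. Margins of 2 or more lie almost wholly among regions under 1000 bp, at low CPM, and the largest among the long regions is the 2.10 of Itgae.

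Counts were low in the short class, and its spleen libraries lay further apart than at long members. The cause of that spread was not tested. A short member had a median of 28 and 53 counts in the spleen libraries and 7 to 28 in the VAT libraries. The spleen libraries differed from each other by a median of 0.29 on the log2 scale at short members and 0.16 at long members, and by more than 1.3-fold at 38.3% and 12.8% of them. Replicate 1 was the higher at 60.2% of the short and 51.2% of the long members. The 10 named members with the largest margins were all short regions of low count. Among them were regions at Gli3 (4.40), Hsf2bp (4.11), Wwox (4.09), Krtap6-5 (4.01) and Pitrm1 (3.84). A region at Slc12a4 and Psmb10 (183 bp, 3.99) had 5.54 and 2.62 CPM in spleen, 0 counts in both CD4 libraries (which allows up to 3 counts in each) and 0.109 to 1.34 CPM in the VAT Treg libraries.

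At the other end, the 10 named members with the highest spleen level had margins of 1.3 to 1.6. The widest margin among them was at Pfkp, the platelet form of phosphofructokinase in glycolysis, with 45.8 and 49.4 CPM in spleen, 28.3 and 31.2 in VAT Tregs of males, 26.3 and 30.4 in those of females and 27.5 and 29.4 in CD4 cells. The 3 VAT groups overlapped each other there and the spleen stood above them. Long regions at Cyp2b19 (70.4 CPM), Nfatc1 (52.1), Eri1 (49.1), Bcl2 (48.8), Grtp1 (48.1), Tpcn2 (47.7) and Spred1 (47.4) shared this form. Just inside the threshold lay Foxn2 and Slc25a40, and just outside it Zbtb17, Gli1 and Irx4, all with a margin that rounds to 1.3.

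Members lay in a gene body about as often as other regions, at 58.9% against 61.1% of regions whose gene could be placed. Without chromosome 18, which has no entry in the promoter table, a listed start was covered by 15.9% of long members against 29.8% of all long regions, and by 3.91% of short members against 4.32% of all short regions. Regions of exactly 1801 bp, which hold 150 members, showed no such gap: 9.86% of these members and 8.73% of all regions of that width covered a start. By chromosome the share of regions that were members ran from 2.11% on chromosome 14 to 4.98% on chromosome 19. There were 46 pairs of neighbouring members within 10 kb of each other and 164 within 50 kb.

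The members took 1.33% ± 0.0085 (SD, n = 2) of the autosomal counts in the spleen libraries, 0.828% ± 0.012 in the Tregs of male VAT, 0.883% ± 0.025 in those of female VAT and 0.789% ± 0.088 in CD4 cells. The group next below the spleen was the female VAT Tregs at 48.2% of members, the male VAT Tregs at 28.1% and the CD4 cells at 23.7%. Over all regions the highest VAT group was the female VAT Tregs at 35.1%, the male VAT Tregs at 42.1% and the CD4 cells at 22.8%. CD4 cells were the lowest group at 51.0% of members, near the 48.3% of all regions. The rule drops regions where any VAT group or library comes near the spleen, so the order at members is set in part by their choice. In cells pooled after a sort, fewer cells with an open region and a less open region per cell cannot be told apart.

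Gene lists were read by the share of their regions that were members, beside the 3.10% over all regions. The genes of TCR signalling had 18 members among 193 regions (9.33%), at 11 of 25 genes, and those of lymphoid homing and egress had 10 among 96 (10.4%), at 6 of 18 genes. Both shares were higher in each width class than over all regions of that class: 11.9% of short and 5.95% of long TCR regions, and 12.5% and 7.5% for homing. The median margin over all regions of a list was nevertheless below 1, at 0.93 for TCR signalling, 0.85 for homing and 0.92 over all regions, so that the members were a minority of their genes' regions. With CPM scaled by trimmed means in place of library totals, 11 TCR regions (5.70%) met the rule beside 2.28% of all regions. Under that scaling 8 homing regions (8.33%) met it. Without male VAT Treg replicate 1 the shares were 9.84% for TCR signalling, 10.4% for homing and 3.48% for all regions, and without CD4 replicate 1 they were 6.22%, 9.38% and 2.96%. The lists stood closest to the background without spleen replicate 2, with 10.9% for TCR signalling and 10.4% for homing beside 7.35% of all regions. At a spleen mean of at least 5 CPM the shares were 3.11% and 6.25% beside 1.66%.

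**Figure D2:**
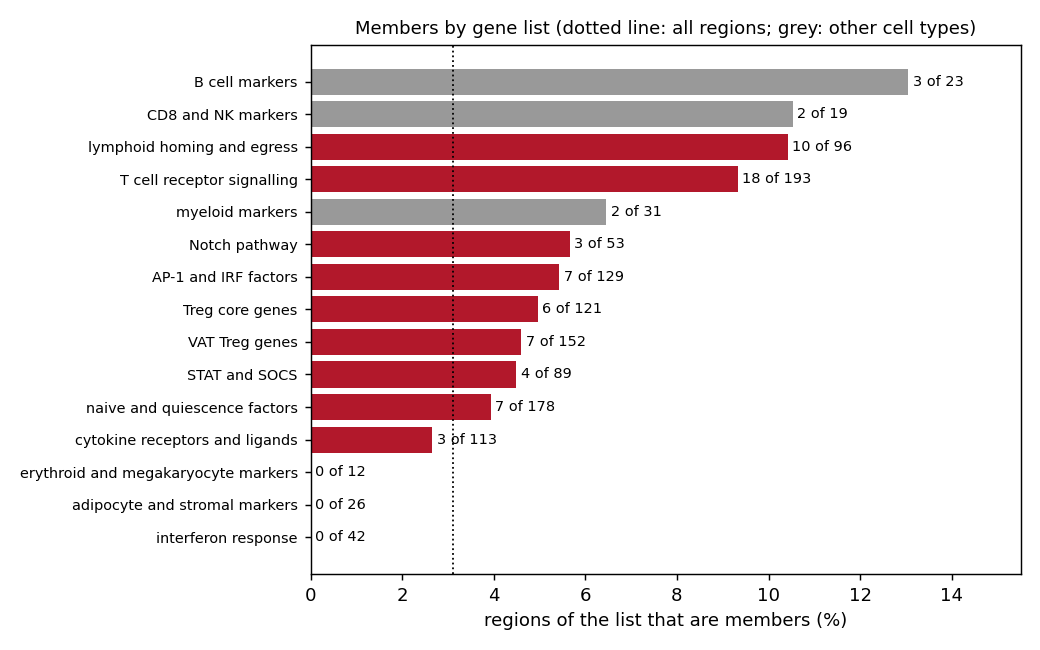
Bars give the percentage of each gene list's regions that were members, with the counts beside them; the dotted line is the 3.10% of all regions, and grey bars are markers of other cell types. TCR signalling (18 of 193) and lymphoid homing (10 of 96) have the highest shares among the T cell lists, and the interferon, erythroid and adipocyte lists have none. Among the grey bars, the B cell list (13.0%) and the CD8 and NK list (10.5%) have higher shares than either.

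Members at TCR genes followed the pathway from the receptor to its kinases. Cd247, which encodes the zeta chain of the receptor complex, had 3 members among 10 regions. The 79-bp one inside the gene (chr1:165812857-165812936, margin 2.41) had 2.34 and 2.56 CPM in spleen, 0.798 and 0.217 in VAT Tregs of males, 0.917 and 1.09 in those of females, and 1.06 and 0.978 in CD4 cells. The spleen libraries lay more than 2 times above every other library there. Cd2, a co-stimulatory receptor, had a 79-bp member 46.8 kb from the gene with 2.96 and 3.07 CPM in spleen and 0.14 to 1.63 in VAT (margin 2.03).

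Downstream, the kinases Fyn and Lck had 3 and 1 members, Zap70 1, the adaptor Lat 2, and the phospholipase Plcg1 2. The long members at Fyn had spleen means of 21.2 and 18.6 CPM and a margin of 1.37 at both. The 81-bp member within Plcg1 had 2.09 and 3.77 CPM in spleen and 0.353 to 1.54 in VAT (margin 2.21). Prkcq, the protein kinase C theta of the T cell synapse, had a 103-bp member 58.4 kb away with 4.68 and 2.43 CPM in spleen and 1.26 to 2.19 in VAT (2.03). The largest margin of the list was at a 79-bp region 60.7 kb from Rasgrp1, the exchange factor that activates Ras, with 2.59 and 1.54 CPM in spleen and 0.109 to 0.917 in VAT (3.22). At Plcg1, Prkcq and Rasgrp1 the spleen libraries differed from each other by more than the VAT group means did. Cblb had 1 member, and Cd3e, Cd28 and Ptprc had none.

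**Figure D3:**
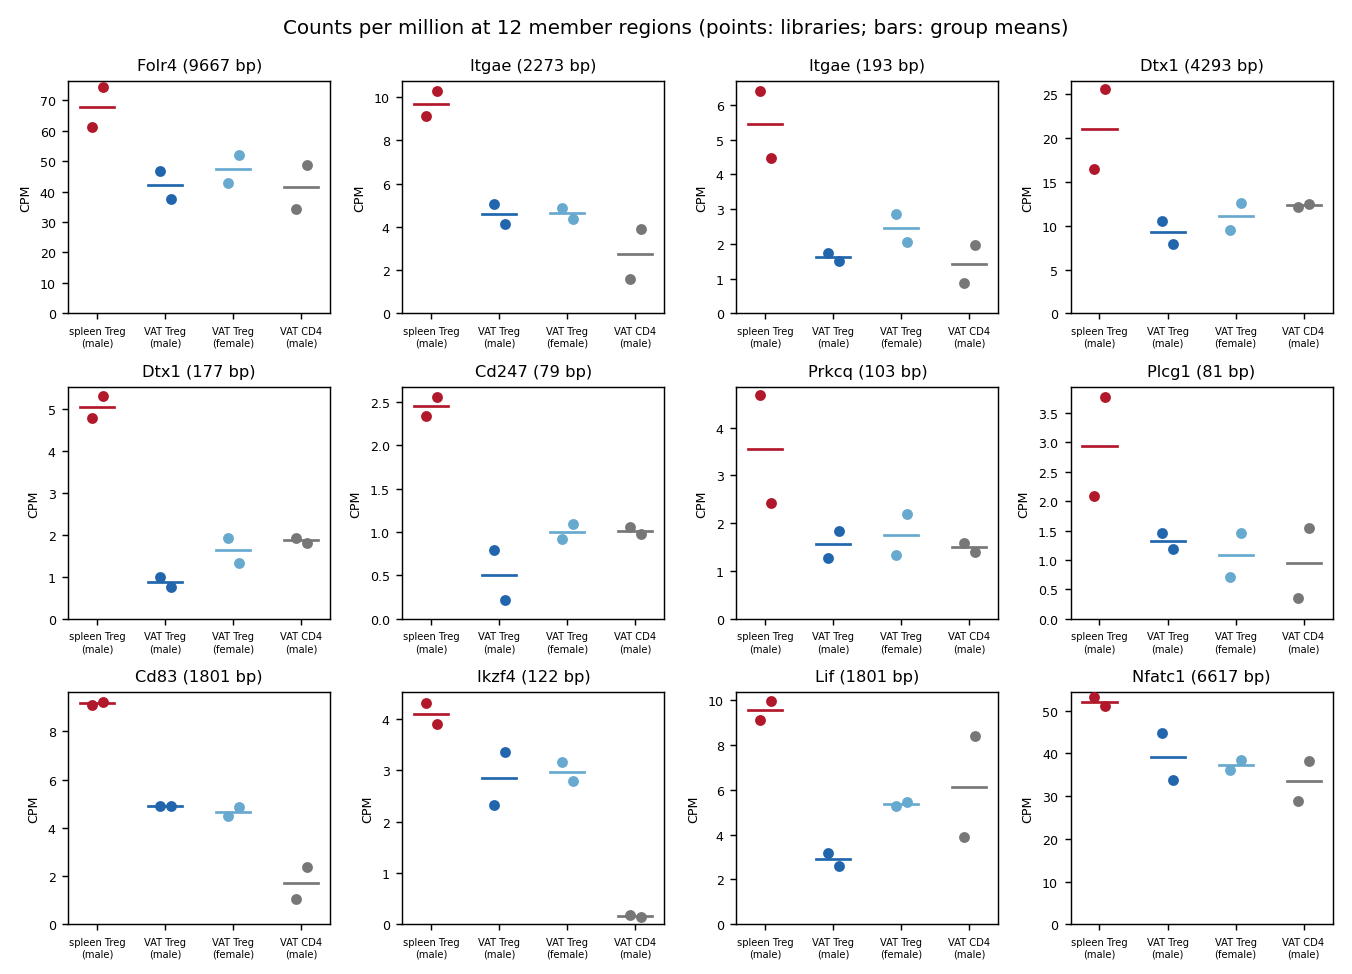
Each panel gives the CPM of 1 member region in every library (points) with group means (bars), on a linear axis from 0. The spleen points lie above all others in each panel by the rule; the order of the VAT groups differs, with CD4 cells lowest at Cd83 and Ikzf4 and male VAT Tregs lowest at Lif and the 177-bp Dtx1 region.

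Among the homing genes, Itgae, which encodes the integrin CD103 that binds E-cadherin on epithelium, had 3 members among its 5 regions. The 2273-bp region inside the gene (chr11:73093663-73095936) had 9.12 and 10.3 CPM in spleen, 5.05 and 4.13 in VAT Tregs of males, 4.89 and 4.37 in those of females, and 1.59 and 3.91 in CD4 cells. The spleen mean of 9.71 ± 0.84 (SD, n = 2) was 2.10 times that of the next group, and the VAT Treg groups overlapped. A 193-bp region further along the gene had 6.41 and 4.48 CPM in spleen and 0.882 to 2.85 in VAT (margin 2.21), and a 145-bp region 0.8 kb outside the gene had 5.67 and 4.09 CPM in spleen and 0.176 to 3.04 in VAT (1.72).

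The other homing members lay at chemokine and lipid receptors that steer lymphocytes, and at the integrin chain gene Itgb7. Ccr6, a receptor for the chemokine CCL20, had a 79-bp member within the gene (margin 2.47) with 2.71 and 2.24 CPM in spleen and at most 1.46 in VAT. Cxcr4 had a 231-bp member 216 kb away (1.73). S1pr1, the receptor by which lymphocytes leave lymph nodes, had members with margins of 1.31 and 1.43, Cxcr5, a receptor for follicle entry, had 2 with 1.37 and 1.39, and Itgb7, the partner chain of Itgae, had 1 with 1.57. Ccr7, a receptor for lymph node entry, had no member.

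The naive and quiescence factors had 7 members among 178 regions (3.93%). They were 6 of its 81 long regions (7.41%, against 2.21% of all long regions) and 1 of its 97 short ones (1.03%, against 4.68%). They lay at Klf6 (2 members), Foxo1, Id3, Bcl6, Ikzf1 and Ets1, with none at Tcf7, Lef1, Bach2 or Satb1. The Klf6 region with the larger margin (3743 bp, 1.45) had 14.0 and 16.5 CPM in spleen and 6.65 to 11 in VAT. The region of Bcl6, the factor of follicular T cells, had 14.3 and 18.2 CPM in spleen and 5.12 to 11.8 in VAT (1.38).

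The Treg core genes had 6 members among 121 regions (4.96%). Besides Izumo1r with 2, they were Cd83, Ctla4, Ikzf2 (Helios) and Ikzf4 (Eos). The Cd83 region (1801 bp, chr13:43760467-43762268, 22.8 kb from the gene) had 9.12 and 9.21 CPM in spleen, 4.92 and 4.89 in VAT Tregs of males, 4.48 and 4.86 in those of females, and 1.06 and 2.38 in CD4 cells. It formed 3 levels, with the spleen 1.87 times the VAT Tregs and CD4 cells below both. The Ctla4 region (79 bp, margin 1.64) kept the same order at low count, with 3.08 and 3.13 CPM in spleen, 1.13 to 2.06 in VAT Tregs, and 0.176 and 0.699 in CD4 cells.

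Notch signalling was represented by Dtx1, a Notch target that encodes the ubiquitin ligase Deltex, and by Notch1. Adjacent members covered Dtx1. The 177-bp region (chr5:120688516-120688693) had 4.80 and 5.31 CPM in spleen, 0.998 and 0.760 in VAT Tregs of males, 1.94 and 1.34 in those of females, and 1.94 and 1.82 in CD4 cells. The 4293-bp region beside it (chr5:120683705-120687998) had 16.5 and 25.6 CPM in spleen and 7.93 to 12.6 in VAT. Margins were 2.69 and 1.71, and male VAT Tregs had the lowest group mean at both. The Notch1 region had 11 CPM in both spleen libraries and 6.17 to 9.08 in VAT (1.41). The list as a whole had 3 members among 53 regions (5.66%).

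The AP-1 and IRF list, which also holds NFAT, EGR and NR4A factors, had 7 members among 129 regions (5.43%). Of these, 3 were at Nfatc1, and none at a Fos, Jun or Batf gene. Nfatc1, a factor switched on by calcium signals, had a 6617-bp member with 53.1 and 51.1 CPM in spleen, 44.7 and 33.8 in VAT Tregs of males, 36.1 and 38.4 in those of females and 28.9 and 38.3 in CD4 cells. Nr4a3 (1.64), Egr2 (1.92), Irf4 (1.44) and Nfatc2 (1.35) had 1 each. Irf4 is also in the list of VAT Treg genes, which had 7 members among 152 regions (4.61%), at Gata3 and Prdm1 with 2 each and at Areg, Irf4 and Tnfrsf9. Over all 152 regions of that list the median margin was 0.50, the lowest of the 15 lists. At Gata3, a factor of the type 2 programme, the leading member was a 79-bp region 198 kb away with 3.33 and 2.62 CPM in spleen and 0.529 to 2.10 in VAT.

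Cytokine receptors and ligands had 3 members among 113 regions (2.65%), at Lif, Il21r and Tgfbr2, and the STAT and SOCS list had 4 among 89 (4.49%), with 2 at Jak2. The region 16.1 kb from Lif, the leukaemia inhibitory factor (1801 bp, chr11:4288573-4290374), had 9.12 and 9.98 CPM in spleen, 3.19 and 2.61 in VAT Tregs of males, 5.30 and 5.46 in those of females, and 3.88 and 8.39 in CD4 cells. Male VAT Tregs lay below all other libraries and the CD4 libraries were far apart. No region of the interferon response list, of 42, was a member.

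Genes with the most member regions were Rapgef5, an exchange factor for Rap proteins, with 5 of 7, Wwox with 4 of 25, and Ptprj and Sall3 with 4 of 11 each; 21 genes had 3. The leading Rapgef5 region (4059 bp) had 21.4 and 20.4 CPM in spleen and 7.41 to 14.6 in VAT (1.72). Ptprj encodes the phosphatase CD148 of blood cells. Icos, an inducible co-stimulator of T cells that was picked out after its values were seen, had 3 of 17, of which the 1801-bp one within the gene had 8.25 and 8.00 CPM in spleen and 2.94 to 6.05 in VAT (1.55).

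Markers of other cell types were measured beside these lists. The B cell list had 3 members among 23 regions (13.0%), at Pax5, Cd22 and Cr2. The myeloid list had 2 among 31 (6.45%), with 1 at Cebpa, and the CD8 and NK list 2 among 19 (10.5%), at Cd8b1 and Gzmb. The B cell share and the CD8 and NK share, each from few regions, were above those of TCR signalling and homing. The erythroid and the adipocyte lists had none among 12 and 26. Over all 23 B cell regions the summed level was 529 and 538 CPM in spleen, 529 and 543 in female VAT Tregs, 418 and 509 in male VAT Tregs, and 382 and 486 in CD4 cells. The summed myeloid level was 389 and 401 CPM in spleen and 268 to 400 in VAT. No marker region of these lists was at 0 in every library, the spleen and female VAT Treg sums overlapped for B cell markers, and the part of other cells in the margins was not tested.

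Whether members also differ within VAT was tested between male and female VAT Tregs and between male VAT Tregs and male VAT CD4 cells, with edgeR's quasi-likelihood test fitted to all regions and adjusted by Benjamini-Hochberg. The comparisons share the male VAT Treg libraries. The rule caps every VAT level below the spleen, which limits how far VAT groups can differ at members, so counts of calls below the background, and the members' median fold changes and signs, carry no reading of their own. Of the 1408 members, 1403 passed the filter on low counts.

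Few members were called between the sexes, a count that the rule itself limits. In male VAT Tregs 6 members were higher (0.428%, against 2.07 percent of all autosomal regions tested) and 4 lower (0.285%, against 0.75 percent). The median log2 fold change, male minus female, was -0.09 over members and 0.01 over all regions. Without male VAT Treg replicate 1, 8 members were higher (0.568%, against 0.497% of all regions) and 6 lower (0.426%, against 2.09%), with a median of -0.12. The members' share of higher calls thus lay below that of all regions with this library and not without it, and over all regions lower calls then outnumbered higher ones.

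**Figure D4:**
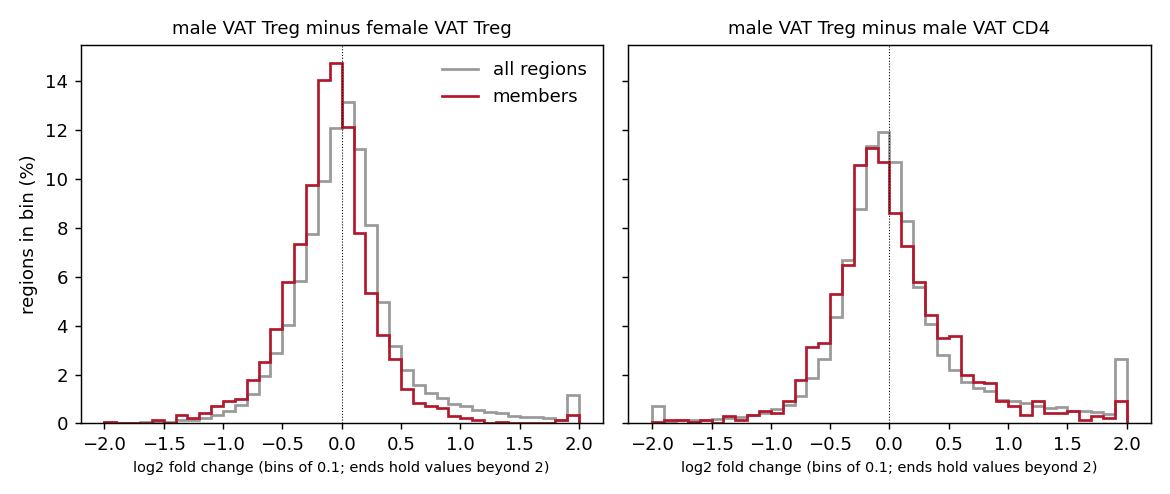
Lines give the percentage of members (red) and of all autosomal regions (grey) in bins of the log2 fold change, for male against female VAT Tregs (left) and male VAT Tregs against male VAT CD4 cells (right). In the left panel members lie slightly below all regions (medians -0.09 and 0.01); in the right panel the medians are -0.05 and -0.02, and that of the members is 0.07 without CD4 replicate 2, -0.10 without CD4 replicate 1 and 0.08 with library size alone.

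The 6 members that rose in males were all short. The rule places their spleen libraries above the female VAT libraries, and the call places the male VAT Tregs above them, so the CD4 libraries alone were free to lie on either side. At Alg2 (79 bp, 29.2 kb from this glycosylation gene) the libraries had 5.17 and 5.25 CPM in spleen, 1.73 and 4.02 in VAT Tregs of males, 0.204 and 0.243 in those of females, and 2.82 and 2.38 in CD4 cells; the log2 fold change was 3.56 ± 0.66 (SE) with an adjusted p of 2.78e-05 by edgeR. At Cnrip1 (117 bp) they had 9.73 and 7.49 CPM in spleen, 2.00 and 6.19 in VAT Tregs of males, 0.408 and 0.729 in those of females and 6.53 and 6.29 in CD4 cells (2.77 ± 0.48, edgeR adjusted p = 5.67e-06). Both CD4 libraries lay above both female libraries at both regions.

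Regions at Rorb (337 kb from the gene; 2.28 ± 0.51, edgeR adjusted p = 0.00109), Slc10a2 (2.58 ± 0.79, 0.0406) and Slc2a3, a glucose transporter (1.83 ± 0.50, 0.0142), had the CD4 libraries on the same side. The 6th, named although it belongs to a predicted gene, 0610040F04Rik, had 55 counts in the male VAT Treg libraries and 0 in the female ones. Against a floor of 3 counts over the group it was at least 13.6-fold higher. At all 6 regions both CD4 libraries were above both female libraries, and male VAT Treg replicate 1 was the lower of its pair, as it was for the Y chromosome. That link was not tested. All 6 male libraries lay above both female libraries at 3.20% of the members, near the 2.91% of all autosomal regions. The calls at Alg2, Cnrip1 and 0610040F04Rik held whichever library was left out. Rorb missed the threshold without female replicate 2 (edgeR adjusted p = 0.0664), and Slc10a2 and Slc2a3 missed it without either female library or without male VAT Treg replicate 2 (edgeR adjusted p up to 0.367 and 0.296).

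**Figure D5:**
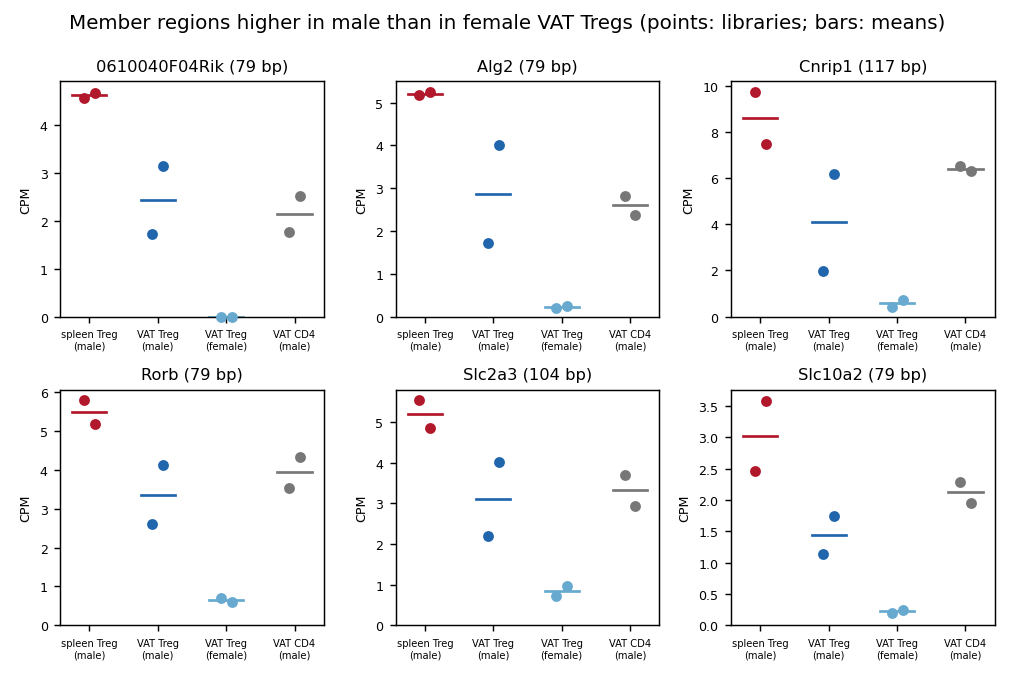
CPM of the 6 member regions called higher in male than in female VAT Tregs, by library (points) with group means (bars), on a linear axis from 0. Female VAT Tregs lie at or near 0 at 0610040F04Rik and Alg2, and both CD4 libraries lie above both female libraries in each panel. The places of the spleen and male VAT Treg libraries follow from the rule and the call. All 6 male libraries lie above both female libraries at 3.20% of members and 2.91% of all autosomal regions.

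The 4 members that fell in males were long regions of moderate level. At Sectm1b and Sectm1a (1801 bp) the libraries had 10.8 and 9.47 CPM in spleen, 4.19 and 1.95 in VAT Tregs of males, 6.83 and 7.16 in those of females, and 3.70 and 6.99 in CD4 cells, a log2 fold change of -1.13 ± 0.31 (edgeR adjusted p = 0.0132). The others were Vrk3 (-0.99 ± 0.30), Tmem57 (-0.87 ± 0.26) and Chd7, a chromatin remodeller (-0.86 ± 0.26). Each of the 4 missed the threshold without either female library or without male VAT Treg replicate 2, and Chd7 also without male VAT Treg replicate 1 (edgeR adjusted p up to 0.333 over the 4).

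Between male VAT Tregs and CD4 cells 13 members were higher in Tregs (0.927%, against 5.19 percent of all autosomal regions tested) and 13 lower (0.927%, against 2.55 percent). The clearest was a 122-bp region (chr10:128642886-128643008) assigned to Rps26 and to Ikzf4, which encodes Eos, a partner of Foxp3. It had 4.31 and 3.90 CPM in spleen, 2.33 and 3.37 in VAT Tregs of males, 3.16 and 2.79 in those of females, and 0.176 and 0.140 in CD4 cells. All 6 Treg libraries were high and both CD4 libraries held a single count each. Counts were 66 against 2, a library-scaled ratio of 17.5 with a 95% interval of 4.64 to 147 for counting error only, and the fitted log2 fold change was 3.94 ± 0.79 (edgeR adjusted p = 5.7e-05). This call held whichever library was left out.

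The other named members that rose were Prdx1 (41 against 3 counts, ratio 7.23, interval 2.31 to 36.5), Arrdc4 (2.25 ± 0.72), Abcc3 (2.04 ± 0.64), Rtn4 (1.79 ± 0.51) and the Cd83 region described above (1.33 ± 0.39, edgeR adjusted p = 0.0148). The calls at Prdx1, Abcc3 and Rtn4 were lost without either CD4 library or without male VAT Treg replicate 1, that at Cd83 without CD4 replicate 1 or male VAT Treg replicate 1, and that at Arrdc4 without CD4 replicate 2 or male VAT Treg replicate 2 (edgeR adjusted p up to 0.433 over the 5). Without male VAT Treg replicate 1, 3 members were higher and 6 lower, beside 1.84% and 1.76% of all regions. Without CD4 replicate 1 they were 3 and 8, beside 2.55% and 1.58%, and without CD4 replicate 2 they were 7 and 3, beside 3.38% and 1.40%. The calls over all regions fell together with those of the members.

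Among members that fell in male VAT Tregs, the Lif region described above had a log2 fold change of -1.22 ± 0.33 (edgeR adjusted p = 0.00624), which without CD4 replicate 2 became -0.58 with an adjusted p of 0.581. A 91-bp region within Ptprj fell by 1.78 ± 0.60 on the log2 scale, with 0.599 and 0.869 CPM in male VAT Tregs, 2.12 and 2.38 in CD4 cells and 3.08 and 2.94 in spleen. Its call was lost without any 1 of 5 VAT libraries, male VAT Treg replicate 2 being the exception (edgeR adjusted p up to 0.290). Chd7 (-0.94 ± 0.28), Vrk3 (-0.91 ± 0.31) and Rftn2 with Mars2 (-0.86 ± 0.27) were the rest of the named ones. Chd7 and Vrk3 were called lower in male VAT Tregs in both comparisons, which share those libraries. Chd7 lost its call against CD4 cells without CD4 replicate 2 or male VAT Treg replicate 2, Rftn2 without CD4 replicate 1 or either male VAT Treg library, and Vrk3 without any 1 of the 8 libraries (edgeR adjusted p up to 0.448).

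Of the TCR signalling list, no member was called in either VAT comparison, while over all 193 regions 2 were higher and 1 lower in the male group of the sex comparison, and 5 were higher and 24 lower in male VAT Tregs than in CD4 cells. No homing member was called either. Over the 96 homing regions 3 were higher and 3 lower between the sexes, and 11 higher and 10 lower against CD4 cells. Of all members, 0.927% were called in each direction against CD4 cells. The lack of calls among 18 TCR and 10 homing members, also with a library left out, therefore carries no reading of its own. Of the 6 Treg core members, those at Ikzf4 and Cd83 were called. They were among 27 of the list's 121 regions that were higher in male VAT Tregs than in CD4 cells. Without male VAT Treg replicate 1 the TCR and homing calls against CD4 cells were mostly lower. Without CD4 replicate 2, in contrast, the TCR calls were close to even and the homing calls were even. The Treg core list had fewer higher regions without male VAT Treg replicate 1 or without either CD4 library. Its Ikzf4 member kept its call in each case, and its Cd83 member lost it without male VAT Treg replicate 1 or CD4 replicate 1. No TCR or homing member was called in either comparison with any 1 of the 8 libraries left out. These list readings with a library left out were added after seeing the data.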

How the data were processed

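For the 8 libraries the authors deposited raw counts in a joint table and log2 CPM in separate files, the latter used for 1 alternative only. The submitters' processing notes name the build GRCm38 (mm10), Subread 1.6.2, HOMER 4.9, featureCounts and limma, with no role given. How regions were called and whether starts count from 0 or 1 is not given in the sources used here. Repeated entries of the count table (62205 entries) were reduced to 46624 distinct regions. Genes are those the table assigns. The gene table at hand holds gene bodies without exons or UTRs, so a position is given as inside a gene or by its distance. Y-linked and short-region shares were taken from the same counts.

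The 2 VAT comparisons used edgeR 4.0.16 (quasi-likelihood, trimmed-mean scaling, filterByExpr) on all 4 groups, with 4 residual degrees of freedom and an adjusted p threshold of 0.05. The code was tested on simulated data. Alternatives used DESeq2 1.42.0 and limma 3.58.1. Intervals and floors cover counting error only. Members, the 15 gene lists (247 genes) and tests were chosen with earlier results of these data known. Named were the 10 members with the largest margin and the 10 with the highest spleen mean, up to 5 per list by margin, the 6 genes with most members, up to 5 called per direction and comparison, and the 3 on each side of the threshold. Predicted genes were left out. Some genes that these rules name are not reported here. Exceptions, named after their values were seen, are Icos, Lat, Slamf6, Tnfrsf1a, 0610040F04Rik and the members of list genes beyond the leading 5. Libraries were treated as unpaired, since the sample labels do not say whether same-numbered ones came from the same mice.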

Additional observations from a re-analysis of the deposited data

How the results depend on the processing

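The set of members depends on its thresholds. It held 597 regions at a fold of at least 1.5, 149 at 2, and 755 at a spleen mean of at least 5 CPM. Leaving out 1 library loosens or tightens the rule, and the count ran from 1346 to 3335; it was 2516 without spleen replicate 1 and 3335 without spleen replicate 2, the cases in which 1 spleen library alone sets the level. The median margin of 1.45 became 1.41 with trimmed-mean scaling and 1.39 with the deposited log2 values, where 61 members had no value, and 1.42 to 1.47 with 1 library left out. Those scalings gave 1035 and 970 members, of which 1021 and 935 were shared. The shares of the TCR and homing lists under these rules were added after seeing the data; they were 6.22% and 8.33% with the deposited values, beside 2.14% of all regions, and 2.59% and 3.13% at a fold of 2, beside 0.328%. For male against female VAT Tregs, the 6 higher members ranged from 3 to 8 with 1 library left out and the 4 lower ones from 0 to 6, while the shares over all regions ranged from 0.497% to 2.74% and from 0.0352% to 2.09%; the lower count was 0 by DESeq2 (23 at an unadjusted p under 0.05, against 44 by edgeR), 1 with library size alone, 1 by limma-voom and 2 with scaling on regions under 1000 bp. It was 0 without either female library (33 and 21 unadjusted). Against CD4 cells, the 13 higher members were 2 by DESeq2, 2 by limma-voom and 2 with scaling on short regions, and 3 to 14 with 1 library left out; the 13 lower ones were 0 by DESeq2 (40 unadjusted), 1 with library size alone, 4 by limma-voom, 25 with scaling on short regions, and 3 to 14 with 1 library left out. Over all regions these ranges were 1.84% to 5.99% higher and 1.40% to 2.68% lower, and DESeq2 called 2.75% and 1.36%, against 0.774% and 0.105% between the sexes. In the same order, the shares over all regions were 3.31% and 2.29%, against 1.95% and 0.774%, by limma-voom. They were 6.30% and 1.49%, against 1.67% and 0.367%, with library size alone. With scaling on short regions they were 2.66% and 4.43%, against 1.07% and 0.638%. The replicate block gave 4.59% and 2.12%, against 1.75% and 0.506%. Scaling on short regions moved the median log2 fold change of all regions to -0.08 and -0.25, and library size alone moved the CD4 comparison to 0.11, against 0.01 and -0.02. Same-numbered libraries did not deviate together (r from -0.146 to 0.067 across regions), which does not show whether any of them share mice. With the replicate block 5 members were higher and 2 lower between the sexes, and 11 higher and 7 lower against CD4 cells. Of 21 named results of the VAT comparisons, 4 held under all 14 alternatives, 17 were lost under at least 1, and 0 changed sign. The cause of these changes was not tested.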
